A study of Mus musculus with 12 samples.

Results

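The dual-specificity MAPK phosphatases were examined in freshly isolated mouse satellite cells, the stem cells of skeletal muscle. The group was given by gene symbol, as *Dusp1*, *Dusp2*, *Dusp4*, *Dusp5*, *Dusp6*, *Dusp7*, *Dusp8*, *Dusp10*, *Dusp14* and *Dusp16*, and all 10 were among the 25093 genes of the count table. The series compared satellite cells with and without GLI3, a transcription factor of the Hedgehog pathway that is processed at the primary cilium, by RNA-sequencing of 12 libraries in 4 groups. Quiescent satellite cells (QSCs) were sorted from uninjured hindlimb muscles as α7-integrin+ and CD34+ cells lacking CD31, CD45, SCA1 and CD11b. Activated satellite cells (ASCs) came from muscles injured 3 days earlier with cardiotoxin. The 6 columns of ASC libraries carried names that match no sample label, so ASC levels were not analysed here, and every value per library below is from QSCs.

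Control QSCs came from mice carrying Pax7-CreERT2/+, Gli3+/+ and R26R-YFP (hereafter *Gli3*+/+, 3 libraries), and deleted QSCs from mice carrying Pax7-CreERT2/+, Gli3fl/fl and R26R-YFP (*Gli3*∆/∆, 3 libraries). The mice were 3 to 4 months old, and by the study's methods both genotypes received tamoxifen, so the controls also carry the inducible Cre, the YFP reporter and the drug. The Cre is made from the *Pax7* locus, which restricts recombination to satellite cells and their progeny, and cells of several mice were pooled for a QSC library. Library totals ranged from 39556784 to 65750131 estimated counts. *Gli3* itself was at 9.71 to 11.2 CPM (counts scaled to library size) in *Gli3*+/+ and at 6.25 to 10.5 in *Gli3*∆/∆ libraries. The floxed allele loses a single exon, so a count over the whole gene does not check the deletion. The study itself checked the excision, by RT-qPCR in QSCs and by Western blot in primary myoblasts, and reported it as efficient.

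The satellite cell identity of the libraries was read from 13 myogenic markers, whose summed level was 5840 to 8770 CPM in *Gli3*+/+ and 6180 to 6670 CPM in *Gli3*∆/∆ libraries, with *Pax7* at 797.9 to 1157 CPM. Markers of other cells were lower in sum for 11 macrophage genes (12.2 to 31.5 CPM in *Gli3*+/+, 11.4 to 19.2 in *Gli3*∆/∆), 6 neutrophil genes (4.06 to 21.4 and 5.68 to 12.5), 8 lymphocyte genes (2.53 to 3.02 and 1.89 to 3.09), 10 endothelial genes (209 to 306 and 192 to 210), 10 Schwann cell genes (268 to 317 and 189 to 281), 6 erythroid genes (39.7 to 373 and 33.8 to 169) and 13 genes of differentiating muscle and myofibers (58.2 to 76.4 and 72.5 to 95.9). Sums were larger for 9 fibro-adipogenic genes (2580 to 4590 and 4010 to 4260) and 8 mural cell genes (1770 to 2450 and 1800 to 2710). In every library most of the first sum was *Col3a1* (1952 to 3624 CPM) and most of the second *Notch3* (1328 to 2458 CPM). The next highest on average were *Dpt* (377.8 to 536 CPM) and *Acta2* (101.2 to 347.2 CPM). The lowest on average were *Pdgfra* (1.648 to 3.799 CPM) and *Pdgfrb* (6.032 to 10.75 CPM). Which cells these transcripts came from was not tested. Replicate 3 of *Gli3*+/+ stood apart from the other 5 libraries, with a mean correlation to them of 0.968 where the others had 0.9756 to 0.977 (log2(CPM + 1), 14696 genes), and the values of *Dusp1*, *Dusp2*, *Dusp4*, *Dusp5* and *Dusp8* are given with and without it. Of the 10 Schwann cell genes, 7 were lower in all 3 *Gli3*∆/∆ than in all 3 *Gli3*+/+ libraries and 1 was higher. Over all genes these shares were 6.57% and 6.39%. Of the 10, 0 were called with edgeR and 4 with DESeq2, which called 1.64% of genes. Of 13 genes of differentiating muscle and myofibers, 5 were higher and 0 lower in all 3 *Gli3*∆/∆ than in all 3 *Gli3*+/+ libraries. Of the 13, 0 were called with edgeR and 1, *Myog*, with DESeq2. *Myog* was at 4.621 ± 1.87 CPM in *Gli3*+/+ and 10.96 ± 2.8 CPM in *Gli3*∆/∆ (SD, n = 3 each). Its adjusted p was 0.297 with edgeR and 0.0171 with DESeq2. In these bulk libraries, a change in the number of cells of a type and in RNA per cell cannot be told apart.

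Mitogen-activated protein kinases (MAPKs) are switched on when a MAP kinase kinase phosphorylates a threonine and a tyrosine in their activation loop, and dual-specificity phosphatases switch them off by removing both phosphates. The nuclear enzymes *Dusp1*, *Dusp2*, *Dusp4* and *Dusp5* are themselves transcribed rapidly after MAPK activation, *Dusp6* and *Dusp7* act on ERK in the cytoplasm, *Dusp8*, *Dusp10* and *Dusp16* prefer JNK and p38, and *Dusp14* is an atypical member that lacks the kinase-binding domain of the others. In muscle stem cells, p38 and ERK signalling accompanies exit from quiescence, and the enzymatic release of cells from muscle is itself known to induce immediate early genes.

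The sequences just upstream of the transcription start are shown for *Dusp1* and *Dusp8*, the pair with the highest levels per length, and for *Dusp5*, the member that varied most between libraries. Each is the 250 bases before the RefSeq start (build GRCm38.p6), written 5′ to 3′ in the direction of transcription. Capitals mark the cyclic AMP response element (CRE) TGACGTCA, its half-site TGACG, the AP-1 element TGANTCA, and the CArG box that serum response factor is known to bind, searched on both strands.
Dusp1, chr17:26508473-26508722 (minus strand): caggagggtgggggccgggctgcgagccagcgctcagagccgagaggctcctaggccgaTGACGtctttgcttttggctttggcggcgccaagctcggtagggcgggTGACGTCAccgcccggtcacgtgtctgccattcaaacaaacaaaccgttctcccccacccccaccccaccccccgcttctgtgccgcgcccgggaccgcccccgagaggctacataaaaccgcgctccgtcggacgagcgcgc
Dusp8, chr7:142095285-142095534 (minus strand): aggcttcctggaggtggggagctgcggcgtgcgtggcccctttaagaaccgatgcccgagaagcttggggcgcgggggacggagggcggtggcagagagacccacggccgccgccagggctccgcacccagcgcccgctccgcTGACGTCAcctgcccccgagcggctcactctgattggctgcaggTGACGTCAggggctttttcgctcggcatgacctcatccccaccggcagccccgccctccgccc
Dusp5, chr19:53528895-53529144 (plus strand): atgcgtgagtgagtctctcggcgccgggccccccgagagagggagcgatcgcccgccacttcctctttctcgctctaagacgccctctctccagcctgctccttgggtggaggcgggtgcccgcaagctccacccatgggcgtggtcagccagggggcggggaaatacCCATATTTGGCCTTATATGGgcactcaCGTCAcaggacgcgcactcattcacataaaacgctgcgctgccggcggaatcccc

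A RefSeq promoter entry was found for 9 of the 10 phosphatases, *Dusp4* being the one not matched. The full CRE occurred in 2 of these 9 windows, those of *Dusp1* (its nearest base 136 bases before the start) and *Dusp8* (2 copies, at 100 and 56 bases), and in 1.55% of 32851 promoter windows of the same length. The half-site, which each full CRE also contains, occurred in 4 of 9 windows and in 17.8% of all. *Dusp5* alone held a CArG box, in 2 adjacent copies at 73 and 63 bases, against 1.47% of all windows. The AP-1 element was in 0 of 9 windows (6.75% of all), the GLI element GACCACCCA in 0 of 9 (0.225%) and the TATA box TATAAA in 0 of 9 (12.4%), while the GC box GGGCGG was in 7 of 9 (32.7%). These are matches of letters in a short window, and binding was not measured.

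None of the 10 phosphatases differed between the genotypes past the threshold used here, an adjusted p under 0.05 with a fold change of at least 1.2 (edgeR, Benjamini-Hochberg over all genes). By that rule 0.351% of the 25093 genes were called, which is 88 genes, with 0.187% higher and 0.163% lower in *Gli3*∆/∆. With DESeq2 0 of 10 were called against 1.64% of genes, and with limma-voom 0 of 10 against 0.291%. At an unadjusted p under 0.05, edgeR gave 1 of 10, *Dusp6*, against 7.11% of all genes. DESeq2 gave 1 of 10 against 7.34%, and limma-voom gave 3 of 10 (*Dusp1*, *Dusp4* and *Dusp6*) against 9.37%. The fitted change was positive for 5 members and negative for 5, with a median log2 fold change (*Gli3*∆/∆ over *Gli3*+/+) of -0.07, beside -0.03 over all genes. The intervals below show which sizes of change these 3 against 3 libraries leave possible.

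**Figure D1:**
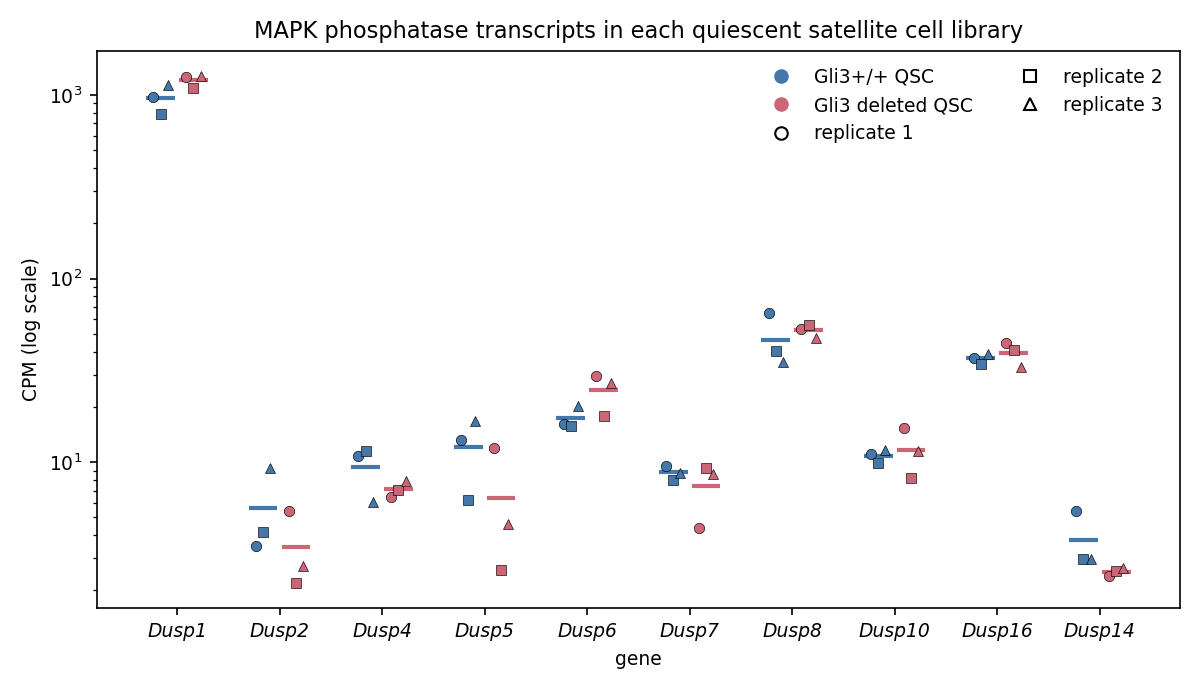
Level of each phosphatase in CPM (log scale) in the 6 QSC libraries, with *Gli3*+/+ in blue, *Gli3*∆/∆ in red, a symbol per replicate and a bar at each group's mean. *Dusp1* sits between 792.8 and 1269 CPM, and the other 9 lie between 2.208 and 64.58 CPM.

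Among the nuclear, inducible enzymes, *Dusp1* (MKP-1, which acts on p38, JNK and ERK) was at 976.5, 792.8 and 1132 CPM in *Gli3*+/+ replicates 1 to 3 and at 1248, 1097 and 1269 CPM in *Gli3*∆/∆ replicates 1 to 3. All 3 deleted libraries lay above *Gli3*+/+ replicates 1 and 2, and *Gli3*+/+ replicate 3 lay above 1 of them. The means were 967 ± 169.6 and 1205 ± 94.11 CPM (SD, n = 3 each), a log2 fold change of 0.32 ± 0.16 (SE) with a 95% interval of -0.05 to 0.68, or 0.968 to 1.6 in fold (edgeR, adjusted p = 0.77). Without *Gli3*+/+ replicate 3 the log2 fold change was 0.45 (edgeR, unadjusted p = 0.0134, adjusted p = 0.446), and without *Gli3*+/+ replicate 2 it was 0.20. Behind these levels stood 39327 to 73503 estimated counts per library. By mean CPM *Dusp1* ranked 88 of 25093 genes. Its annotated locus lies at chr17:26505590-26562128 (GRCm38, minus strand), has 6 transcripts and shares 11 exon bases with *Ergic1* on the opposite strand.

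*Dusp5* (chr19:53529109-53542431, plus strand), a nuclear phosphatase selective for ERK, was at 13.19, 6.24 and 16.78 CPM in *Gli3*+/+ and at 12, 2.596 and 4.583 CPM in *Gli3*∆/∆ libraries. The highest library held 6.46 times the level of the lowest, the widest range of the 10 genes, and the groups overlapped because *Gli3*∆/∆ replicate 1 was near the controls. The log2 fold change was -0.92 ± 0.54 (SE), with a 95% interval of -2.14 to 0.31 (edgeR, adjusted p = 0.835). Its biological coefficient of variation was 46.8%, where the trend for genes of its level gave 24.7%. Without *Gli3*∆/∆ replicate 1 the log2 fold change was -1.75, without *Gli3*∆/∆ replicate 2 it was -0.54, and without *Gli3*+/+ replicate 3, the highest library, it was -0.60. The antisense gene AC137853.2 overlaps 547 exon bases of *Dusp5*. The kit kept strand, but the strand setting of the quantification is not given in the sources used here, so *Dusp5* reads may include antisense reads.

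*Dusp2* (PAC-1, known mainly from activated leukocytes, chr2:127336159-127338376, plus strand) was at 3.501, 4.165 and 9.305 CPM in *Gli3*+/+ and at 5.4, 2.208 and 2.714 CPM in *Gli3*∆/∆ libraries. *Gli3*+/+ replicate 3 held the highest value and *Gli3*∆/∆ replicates 2 and 3 the lowest, and the groups overlapped. The log2 fold change was -0.72 ± 0.45 (SE; interval -1.73 to 0.30; edgeR, adjusted p = 0.847), and it was -0.16 without *Gli3*+/+ replicate 3. In that library the macrophage, neutrophil and lymphocyte markers summed to 12.2, 4.06 and 3.02 CPM, and their part in the level of *Dusp2* was not tested.

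*Dusp4* (MKP-2, chr8:34807297-34819894, plus strand) was at 10.83, 11.53 and 6.033 CPM in *Gli3*+/+ and at 6.469, 7.013 and 7.868 CPM in *Gli3*∆/∆ libraries. It was high in *Gli3*+/+ replicates 1 and 2, and *Gli3*+/+ replicate 3 was the lowest of all 6. The log2 fold change of -0.41 ± 0.26 (SE; interval -0.99 to 0.17; edgeR, adjusted p = 0.847) became -0.65 without that library, with an adjusted p of 0.32, the lowest of any phosphatase under any alternative.

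Of the ERK-selective cytoplasmic pair, *Dusp6* (MKP-3, a feedback inhibitor transcribed downstream of ERK, chr10:99263231-99267489, plus strand) was at 16.09, 15.74 and 20.17 CPM in *Gli3*+/+ and at 29.33, 17.77 and 27.06 CPM in *Gli3*∆/∆ libraries. *Gli3*∆/∆ replicates 1 and 3 lay above every control, and replicate 2 lay below *Gli3*+/+ replicate 3. The means were 17.33 ± 2.46 and 24.72 ± 6.125 CPM (SD, n = 3 each), a fold of 1.43 with a 95% interval of 1.03 to 1.98. Its unadjusted p was 0.0379 and its adjusted p 0.664 (edgeR), so the difference did not pass the correction over all genes. The log2 fold change stayed between 0.37 and 0.70 when each library was left out.

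*Dusp7*, the other member of the pair (chr9:106368632-106375724, plus strand), was at 9.56, 8.033 and 8.772 CPM in *Gli3*+/+ and at 4.389, 9.236 and 8.595 CPM in *Gli3*∆/∆ libraries. Only *Gli3*∆/∆ replicate 1 was outside the range of the controls by a wide margin, and without it the log2 fold change moved from -0.25 to 0.02. *Dusp6* and *Dusp7* thus gave no common direction in these libraries, and neither passed the test.

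With all 6 libraries, the 3 phosphatases that prefer JNK and p38 had fitted log2 fold changes between 0.10 and 0.17. *Dusp8* (chr7:142079490-142095843, minus strand) was at 64.58, 40.18 and 34.92 CPM in *Gli3*+/+ and at 53.24, 56.16 and 47.4 CPM in *Gli3*∆/∆ libraries, the latter lying within the range of the controls. Its log2 fold change was 0.17 ± 0.22 (SE; edgeR, adjusted p = 0.937), 0.00 without *Gli3*+/+ replicate 3 and 0.48 without *Gli3*+/+ replicate 1 (edgeR, unadjusted p = 0.0209, adjusted p = 0.589). It shares 66 exon bases with Gm32786 on the opposite strand. *Dusp16* (MKP-7, which holds JNK, chr6:134715468-134792625, minus strand) was at 37.15, 34.04 and 38.92 CPM in *Gli3*+/+ and at 44.6, 40.57 and 33.16 CPM in *Gli3*∆/∆ libraries. It was the steadiest member, its highest library holding 1.34 times the level of its lowest, and its interval of 0.849 to 1.36 in fold was the narrowest of the 10. *Dusp10* (MKP-5, chr1:184013302-184075636, plus strand) was at 11.05, 9.856 and 11.6 CPM in *Gli3*+/+ and at 15.34, 8.236 and 11.51 CPM in *Gli3*∆/∆ libraries. The controls lay inside the span of the deleted libraries, and the log2 fold change was 0.11 ± 0.23 (SE; edgeR, adjusted p = 0.966).

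The atypical *Dusp14* (chr11:84048041-84069261, minus strand) was at 5.388, 2.979 and 2.97 CPM in *Gli3*+/+ and at 2.404, 2.537 and 2.655 CPM in *Gli3*∆/∆ libraries. It was the only member whose groups did not overlap, all 3 deleted libraries lying below all 3 controls. Groups that do not overlap were found for 13% of all genes, and for 6.57% with the deleted libraries below, beside 1 of 10 members. The log2 fold change was -0.57 ± 0.29 (SE; interval -1.24 to 0.09; edgeR, adjusted p = 0.77) and shrank to -0.23 without *Gli3*+/+ replicate 1, which held the highest value. The same library had the highest sums of macrophage (31.5 CPM), neutrophil (21.4 CPM), endothelial (306 CPM) and erythroid (373 CPM) markers, and their part in the level of *Dusp14* was not tested.

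**Figure D2:**
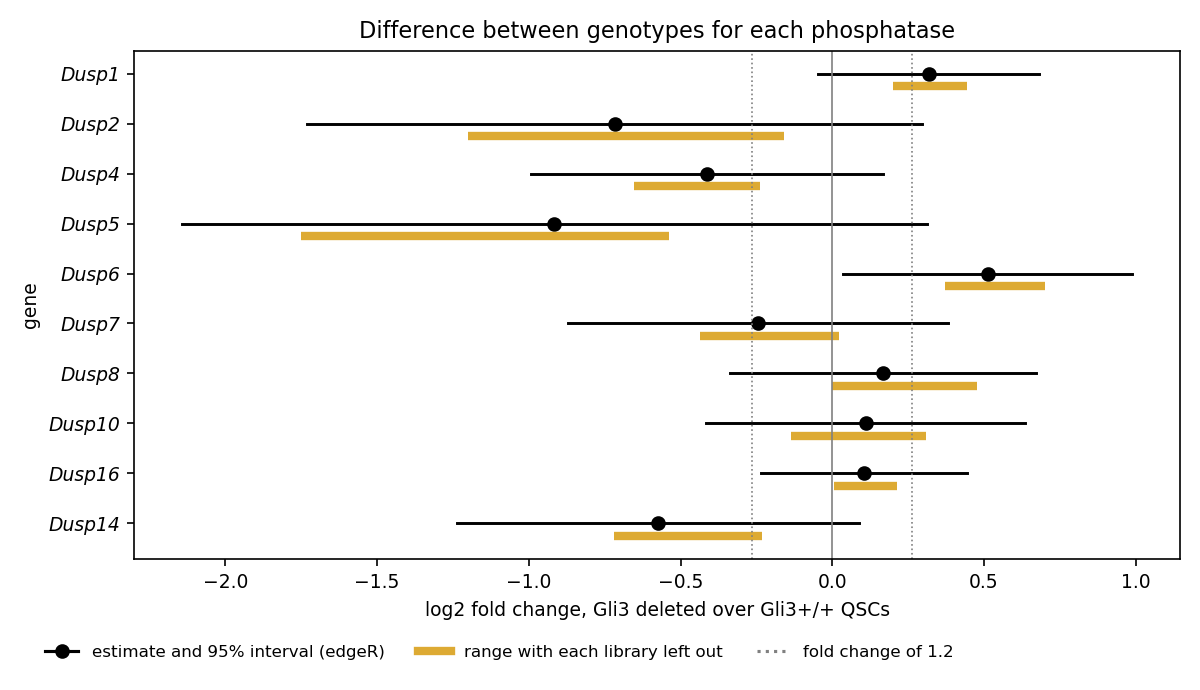
Log2 fold change of each phosphatase, *Gli3*∆/∆ over *Gli3*+/+ QSCs, with its 95% interval from edgeR (black, n = 3 libraries each) and the range of estimates when each library is left out (yellow), with dotted lines at a fold of 1.2. The interval of *Dusp6* alone lies to one side of 0 (0.04 to 0.99), and those of *Dusp5* (-2.14 to 0.31) and *Dusp2* (-1.73 to 0.30) are the widest.

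To compare levels between genes, CPM were divided by the length of each gene's merged exons in kilobases. *Dusp1* was at 327.9 ± 54.04 CPM per kb (SD, n = 6), 32.3 times the next member, *Dusp8*, at 10.15 ± 2.23. *Dusp6* followed at 6.714 ± 1.857, *Dusp16* at 4.882 ± 0.5462, *Dusp5* at 3.733 ± 2.25 and *Dusp10* at 3.703 ± 0.778 CPM per kb. The lower end was *Dusp4* at 3.026 ± 0.8505, *Dusp7* at 2.413 ± 0.5637, *Dusp2* at 2.271 ± 1.291 and *Dusp14* at 1.622 ± 0.5747 CPM per kb.

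The order was the same in every library only at the top. *Dusp1* lay above *Dusp8*, *Dusp8* above *Dusp6* and *Dusp6* above *Dusp16* in 6 of 6 libraries. From *Dusp16* downwards each gene lay above its next neighbour in 2 to 4 of 6 libraries, so that neighbours there did not differ beyond their spread. *Dusp1* made up 89.34% ± 1.64 of the summed CPM per kb of the 10 genes (SD, n = 6; 87.16% to 91.32%), and ranked 147 of 25080 genes with a length. On the same scale the ERK kinase *Mapk3* was at 28.4 CPM per kb, the p38 kinase *Mapk14* at 22.9, and the JNK kinases *Mapk9* and *Mapk8* at 8.02 and 3.66. *Dusp1* lay above the means of all 4 of these kinases in every library, while the early genes *Egr1* and *Fos* stood at 2080 and 3085 CPM per kb. The merged length takes in every annotated transcript, whether or not satellite cells use it. For *Dusp1* it is 3311 bases, against 2313 for its longest transcript.

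**Figure D3:**
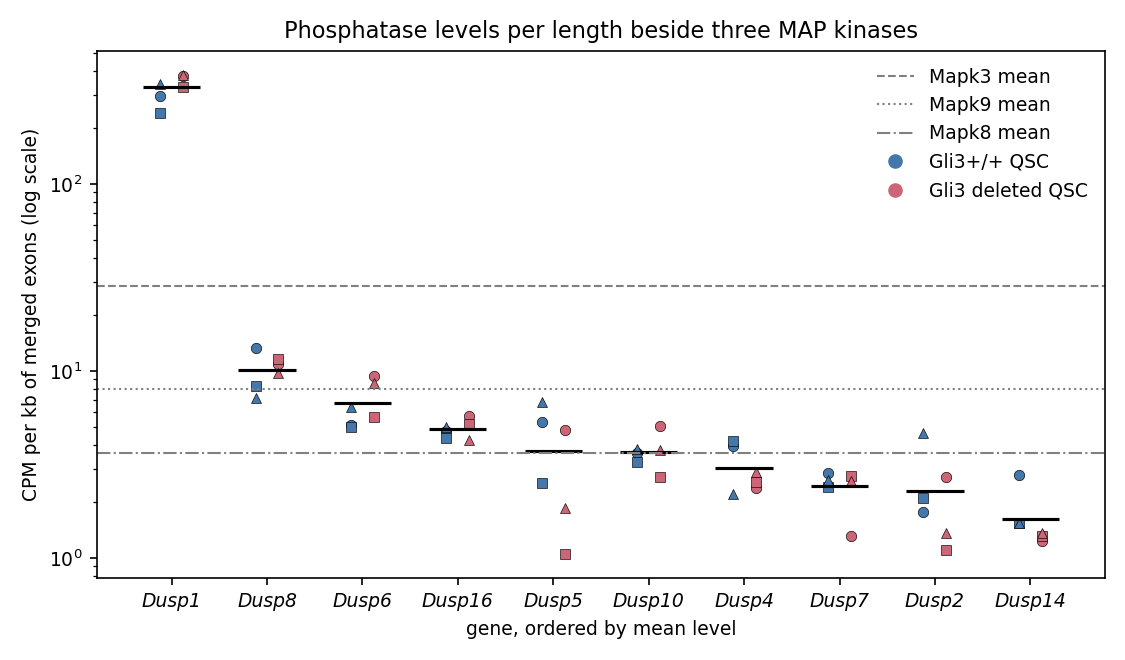
Level of each phosphatase in CPM per kb of merged exons (log scale), ordered by the mean over 6 QSC libraries (black bar), with *Gli3*+/+ in blue and *Gli3*∆/∆ in red. Horizontal lines give the means of *Mapk3* (28.4), *Mapk9* (8.02) and *Mapk8* (3.66), of which *Dusp1* alone exceeds the highest.

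The inducible members did not all vary together between libraries, although *Dusp2* and *Dusp5* shared their direction in most of them. Expressed as log2 CPM minus the gene's own mean, *Dusp5* was at 1.14 and *Dusp2* at 1.2 in *Gli3*+/+ replicate 3, and at -1.56 and -0.87 in *Gli3*∆/∆ replicate 2. *Dusp1* moved little in the same libraries, at 0.08 and 0.03. *Dusp4* was at -0.41 in *Gli3*+/+ replicate 3, opposite to *Dusp2* and *Dusp5*. Among immediate early genes, *Egr3* (21.18 to 157.1 CPM), *Atf3* (131.5 to 491.8 CPM) and *Myc* (104.2 to 235.5 CPM) also spread widely, these 3 being chosen after their values were seen. *Dusp2*, *Dusp5*, *Egr3*, *Atf3* and *Myc* were all above their means in *Gli3*+/+ replicate 3 (0.13 to 1.2) and *Gli3*∆/∆ replicate 1 (0.42 to 1.27). All were below their means in *Gli3*∆/∆ replicates 2 and 3. In *Gli3*+/+ replicate 1 they parted, with *Dusp5* (0.79), *Atf3* (0.92) and *Egr3* (0.53) above and *Dusp2* (-0.21) and *Myc* (-0.25) below. In *Gli3*+/+ replicate 2 only *Dusp2* (0.04) was not below its mean. *Fos*, *Egr1* and *Jun* stayed within -0.32 to 0.25 of their means. This is a description of 6 libraries that share their sort and preparation.

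**Figure D4:**
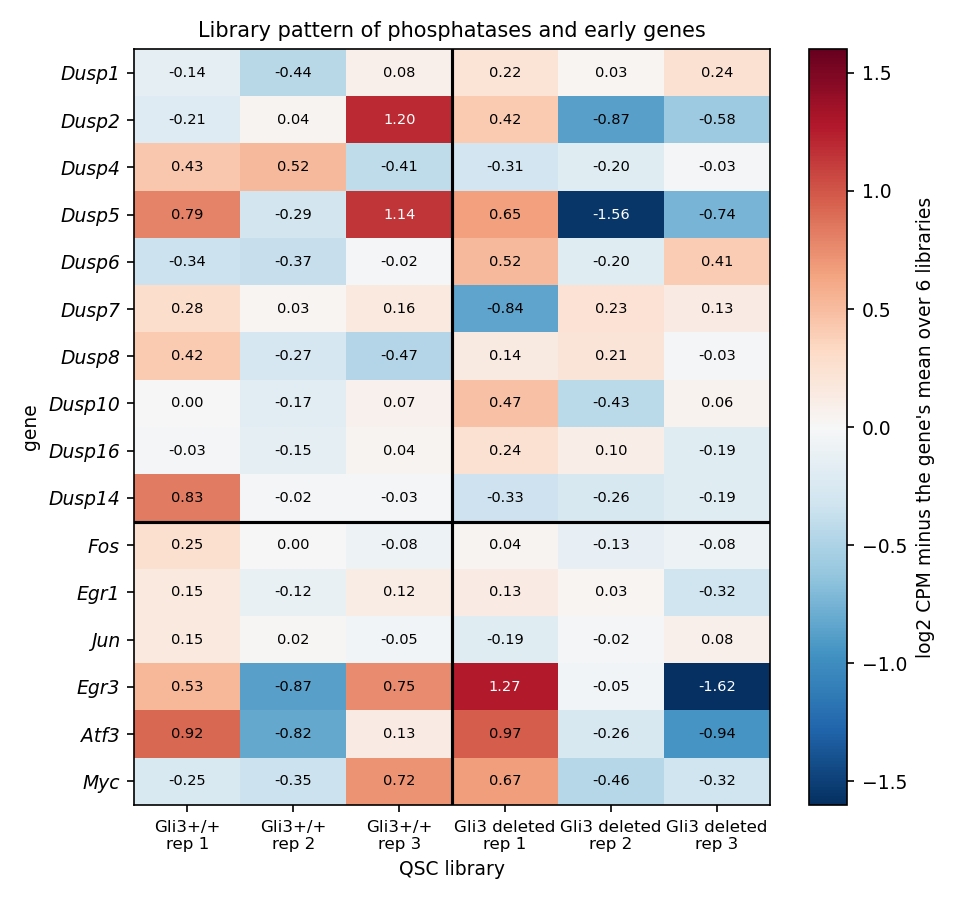
Log2 CPM minus each gene's mean over the 6 QSC libraries, for the 10 phosphatases (above the line) and 6 immediate early genes (below it), with red above and blue below the mean. *Dusp2* and *Dusp5* reach 1.2 and 1.14 in *Gli3*+/+ replicate 3 and fall to -0.87 and -1.56 in *Gli3*∆/∆ replicate 2, while *Dusp1* stays between -0.44 and 0.24.

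The genes whose level followed *Dusp1* most closely over the 6 libraries, among 9591 genes of at least 10 CPM on average, were *Tsc22d1* (Pearson r = 0.9944 of log2(CPM + 1)), *Ppic* (0.993), *Tufm* (0.9891), *Rer1* (0.9863) and *Mrpl48* (0.9856). Like *Dusp1*, all 5 were lowest in *Gli3*+/+ replicate 2, *Tsc22d1* for example at 35.69 CPM there against 43.65 to 58.55 in the others. With 6 points and 9591 genes, 31 genes exceeded 0.95, and none of the 5 is an immediate early gene of the list used here.

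The kinases that these phosphatases act on did not differ past the threshold either. Of 14 MAP kinases 0 were called, with a median log2 fold change of -0.06 beside -0.03 over all genes. *Mapk14* (p38α) was at 109 ± 1.25 and 91.42 ± 3.05 CPM, and *Mapk3* (ERK1) at 59.96 ± 6.92 and 68.22 ± 6.94 CPM in *Gli3*+/+ and *Gli3*∆/∆ (SD, n = 3 each). All 3 deleted libraries lay below all 3 controls for *Mapk14* (log2 fold change -0.25, edgeR, adjusted p = 0.72). This held for 1 of 14 MAP kinases and for 6.57% of all genes. Upstream, 0 of 7 MAP kinase kinases (median -0.01), 0 of 15 MAP kinase kinase kinases (-0.06) and 0 of 15 RAS and RAF genes (-0.09; 13 of 15 below 0, as were 54% of all genes) were called. Among the most abundant of these by CPM, the log2 fold change was -0.01 for *Map2k7* and 0.10 for *Map2k2*, -0.40 for *Map3k6*, -0.29 for *Map3k2* and -0.07 for *Map3k7*, and -0.25 for *Ksr1* and 0.04 for *Araf*, none of them called. *Map2k3*, an activator of p38 and the other of the 3 most abundant MAP kinase kinases, was at 214 CPM in *Gli3*+/+ replicate 3 and at 33.24 to 50.24 CPM in the other 5 libraries.

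Downstream, 0 of 11 MAPK-activated kinases were called (median -0.04), and the most abundant, *Mknk2*, *Rps6ka3* and *Mapkapk2*, had log2 fold changes of 0.02, -0.35 and -0.21. Of 10 feedback inhibitors of ERK signalling 0 were called (median -0.10). Among these *Errfi1* (1919 ± 1130 and 1556 ± 304 CPM) was at 3222 CPM in *Gli3*+/+ replicate 3 and at 1296 and 1238 CPM in the other controls, *Spry1*, known for holding satellite cells in quiescence, was at 948.3 ± 68.8 and 872.7 ± 61.3 CPM, and *Spred1* at 224 ± 64.3 and 207.7 ± 8.9 CPM. Of 31 immediate early targets of ERK and SRF 0 were called, and 25 had a fitted change below 0 (median -0.19), against 54% of all genes. The most abundant were *Egr1* (9647 ± 955 and 9003 ± 1420 CPM), *Fos* (7552 ± 928 and 6961 ± 420 CPM) and *Fosb* (5527 ± 802 and 4210 ± 971 CPM). In a list of 22 genes of the response to dissociation, 0 were called and 20 were below 0 (median -0.14), with a summed level of 57200 to 78900 CPM in *Gli3*+/+ and 58200 to 60400 CPM in *Gli3*∆/∆ libraries. The high end was *Gli3*+/+ replicate 1, and 12 of the 22 genes are also in the list of immediate early targets, while no phosphatase is in either. The part of this response in the levels of *Dusp1* and the other inducible phosphatases was not tested.

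The authors' mean normalised count, a single value per gene over the libraries of their own analysis and identical in all 4 of their result tables, can be set beside the QSC mean on the count scale. Those tables cover comparisons of QSCs and of ASCs, so the authors' mean takes in ASC libraries. The means set side by side thus cover unlike sets of samples. For *Dusp1* the authors' mean was 30920 and the mean of the 6 QSC libraries 56640 (41160 to 66390), and for *Dusp8* they were 1327 and 2578 (1811 to 3379). Both means of the authors lay below every QSC library, and so did that for *Dusp16*, at 1510 against 1735 to 2339. For 6 genes the authors' mean lay above every QSC library, among them *Dusp5* at 2260 against 135.1 to 870, *Dusp10* at 1860 against 428.4 to 804.8, and *Dusp7* at 1083 against 230.2 to 500.1. For *Dusp2* the authors' mean of 303 lay within the QSC range of 114.9 to 482.6. The median gene had a ratio of 0.909, and the size factors behind the means are not the same. Relative to it the ratios of the members ran from 0.566 for *Dusp8* and 0.6 for *Dusp1* to 3.48 for *Dusp10* and 5.16 for *Dusp5*. Of 14696 genes compared, 3.77% had a lower ratio than *Dusp8*, 6.27% than *Dusp1*, 33% than *Dusp16* and 76% than *Dusp2*. For the 6 genes above every QSC library this share ran from 88.7% (*Dusp6*) to 97.6% (*Dusp5*). How many of all genes lay outside their QSC range was not counted. These means carry no SD or n, no ASC level was derived from them, and no test was made.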

How the data were processed

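RNA was measured by poly(A) RNA-sequencing of sorted satellite cells (a directional kit). The authors deposited estimated counts per gene, made by their methods with Salmon and tximport on GRCm38 and not normalised, and 49.2% of the values were not whole. The authors also deposited 4 tables of DESeq2 results; in these the signal used here as a description is the authors' mean normalised count, divided by size factors before it was deposited. Their fold changes and p-values were not used. A further 6 columns of counts matched no sample label and were not used, so the fit covered 6 QSC libraries.

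After rounding, genotypes were compared by the quasi-likelihood test of edgeR 4.0.16 under R 4.3.3, with TMM scaling, Benjamini-Hochberg adjustment over 25093 genes and no added filter. The same comparison was repeated in DESeq2 1.42.0 and in limma 3.58.1 with voom quality weights, and under other scalings and filters, a replicate block and leaving out each library. The code was tested on simulated data of 3 against 3 libraries. There edgeR called 0 of 67 genes changed 1.5-fold, 23.9% of those changed 2-fold and 68.2% of those changed 4-fold. DESeq2 called 8.96%, 55.2% and 83.3%, and limma-voom 0%, 11.9% and 59.1%. A gene not called here may therefore still differ by such folds. Among genes simulated without a change, edgeR called 11, DESeq2 47 and limma-voom 2, so a called gene may also be unchanged. Positions are from GENCODE vM21, where 96.3% of identifiers carry the same version, and that of *Dusp1* does not. Samples of a group are separate libraries, and nothing in the labels says that the pools share no animals, so p-values measure the spread between these libraries. A single exact test of 3 against 3 cannot go below p = 0.1.

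The phosphatases and the 20 gene lists were chosen with earlier results of these data known. Named are the 10 phosphatases, from each pathway list the called genes and up to 3 of the highest mean CPM, and the 5 genes most correlated with *Dusp1*. Results for some genes under this rule are not reported here. *Mapk8*, *Mapk9*, *Jun*, *Egr3*, *Atf3*, *Myc*, *Dusp13*, *Etv5* and *Myog* were chosen after their values were seen.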

Additional observations from a re-analysis of the deposited data

How the results depend on the processing

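None of the 10 phosphatases was called under any of the 12 alternatives run for each. Their direction was kept except for *Dusp7*, at 0.0217 (log2 fold change) without *Gli3*∆/∆ replicate 1 (range over left-out libraries -0.4364 to 0.0217), *Dusp10*, at -0.1349 without the same library (-0.1349 to 0.3096), and *Dusp8*, at -0.0014 without *Gli3*+/+ replicate 3 (-0.0014 to 0.4768). The count over all genes was 88, and it was 384 with DESeq2, 48 with at least 10 counts in every library, 73 with limma-voom, 90 with DESeq2 size factors, 85 with filterByExpr and 88 with no minimum fold. It ran from 58 to 103 with each library left out, the lowest without *Gli3*∆/∆ replicate 3; the causes were not tested. With each library left out, 0 to 4 of 10 phosphatases had an unadjusted p under 0.05, the 4 without *Gli3*+/+ replicate 3, where 8% of all genes did. The replicate numbers gave no sign of pairing, the correlations of same-numbered deviations being -0.276, -0.0196 and -0.0642. Differently numbered pairs ran from -0.241 to 0.329, the highest being *Gli3*+/+ replicate 1 with *Gli3*∆/∆ replicate 2. *Gli3*+/+ replicate 3 with *Gli3*∆/∆ replicate 1 followed at 0.273. Because each group of 3 was centred on its own mean, these correlations constrain each other and cannot decide whether libraries were paired. A pairing other than by number was not tested. With the replicate block 79 genes and 0 phosphatases were called, and 2 of 10 phosphatases had an unadjusted p under 0.05, against 5.28% of all genes. With the longest transcript as length, *Dusp1* made up 91.41% of the summed level per kb. When each group was centred on its mean, 0 of the 5 genes most like *Dusp1* were among the top 5, although their r stayed at 0.9738 to 0.99. The planned fits of ASC libraries were not run, because their columns match no label. The lowest counts were those of *Dusp14*, 126 to 217 per library.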

Other observations

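Of 21 other dual-specificity phosphatases in the table, 0 were called with edgeR and 1, *Dusp13*, with DESeq2, against 1.64% of genes; their median log2 fold change was -0.02. *Dusp13*, an atypical phosphatase of skeletal muscle and testis, was at 4.321, 5.276 and 4.084 CPM in *Gli3*+/+ and at 0.5916, 1.656 and 1.79 CPM in *Gli3*∆/∆ libraries. *Dusp13* was chosen after its values were seen. All its deleted libraries lay below all controls, as for 3 of the 21 and for 6.57% of all genes. The log2 fold change was -1.76 ± 0.40 (SE), with an adjusted p of 0.177 with edgeR, 0.00138 with DESeq2 and 0.117 with limma-voom. The most abundant of these other phosphatases by CPM were *Ssh2*, a phosphatase of cofilin, at 191.4 ± 38.6 and 202.6 ± 23.4 CPM, *Dusp11*, which acts on RNA, at 195.5 ± 16.4 and 191.6 ± 20.7 CPM, and *Dusp3* at 90.55 ± 10 and 105.2 ± 12.6 CPM (SD, n = 3 each). None of these 3 was called.

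Beside *Dusp6*, the ERK target *Etv5*, a transcription factor of the ETS family, was at 67.89, 77.91 and 51.96 CPM in *Gli3*+/+ and at 94.71, 87.73 and 102.4 CPM in *Gli3*∆/∆ libraries. *Etv5* was chosen after its values were seen. All 3 deleted libraries lay above all 3 controls, as for 6.39% of all genes, with a log2 fold change of 0.53 ± 0.17 (SE; edgeR, adjusted p = 0.454). As with *Dusp6*, the difference did not pass the correction over all genes. In its list of 31 early targets, 1 gene lay above without overlap and 3 below, and 25 had a fitted change below 0. *Spry1* and *Spred1*, also known as products of ERK-responsive genes, had log2 fold changes of -0.12 and -0.11. Of the 10 feedback inhibitors in their list, 3 had a fitted change above 0 and 7 below.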
